A study of Mus musculus with 18 samples.

Results

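The genes described here are the collagens and a set of matrix genes typical of mesenchyme, in cells derived from mouse embryonic stem cells. Members were taken by symbol alone. They are all genes whose mouse symbol names a collagen alpha chain (Col, a number, a, a number) plus Postn, Lox, Fn1, Sparc, Prelp, Lum and Dcn. This gave 51 of the 37224 genes in the count table, and no expression value entered the choice. They divide into 11 fibrillar collagens, 8 basement membrane collagens, 25 other collagens and 7 genes that are not collagens. RNA was sequenced from 18 libraries in 6 groups of 3. The first pair of groups are Hoxb1-null and wild-type neuromesodermal progenitors (NMPs), a bipotent embryonic population that feeds both the posterior neural tube and the somites. The other groups are neural progenitors given DOX and expressing Hoxb1 together with SAG, neural progenitors with SAG, neural progenitors given DOX and expressing Hoxb1, and neural progenitors given neither agent, named control progenitors below. Hoxb1 is an anterior homeodomain transcription factor, and SAG is an agonist of Smoothened that activates hedgehog signalling. All cells carried the strain label C57BL/6. The sources used here name neither lines nor clones, nor whether the 3 libraries of a group are separate differentiations, so p-values measure only the spread between these libraries. Hoxb1 and DOX cannot be told apart, nor can SAG and the set in which the libraries were numbered.

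Collagens are secreted or membrane-bound proteins whose alpha chains wind into trimers. The fibrillar types (I, II, III, V, XI and relatives) build the fibrils of mesenchyme, skin, bone and cartilage, and the chains of types I, V and XI assemble in mixed trimers. Type IV collagen forms the network of basement membranes, the sheets under epithelia such as the neural tube, and types XV and XVIII are attached to it. The remaining collagens include the beaded filaments of type VI, the hexagonal networks of type VIII, fibril-associated types such as IX, XII and XIV, and transmembrane types such as XIII and XXV. Fibronectin (Fn1) is the main matrix protein around early mesoderm, Sparc binds collagen, Lox crosslinks it, Postn is a matricellular protein of fibrous tissue, and Lum, Dcn and Prelp are small leucine-rich proteoglycans.

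Total counts per library were 13301476 to 26974315. They were 22610407 to 26974315 in progenitors with SAG and 13301476 to 14505711 in progenitors without it. Calls in these 2 settings therefore also differ in depth. Hoxb1 itself followed the labels, at 14.7, 16.2 and 14.8 CPM (counts scaled to library size) in Hoxb1-null NMPs against 241, 272 and 249.99 CPM in wild-type NMPs. In progenitors Hoxb1 averaged 591 ± 21.2 CPM with DOX and SAG against 0.459 ± 0.0662 CPM with SAG alone, and 323 ± 16.0 CPM with DOX against 0.358 ± 0.288 CPM in control progenitors (SD, n = 3 each). The markers T and Sox1 followed the cell labels. T (brachyury) was at 1185 CPM in wild-type NMPs and 12.3 CPM in control progenitors. The neural gene Sox1 was at 0.338 CPM in wild-type NMPs and 280.1 CPM in control progenitors. Of 6 NMP markers 5 were higher in wild-type NMPs and 1 lower, and of 5 neural progenitor markers 4 were lower and 1 higher. Of all tested genes, 86% were called in this comparison. Sox2, on both lists, was at 13.4 CPM in wild-type NMPs and 619.9 CPM in control progenitors. Replicate 3 of the Hoxb1-null NMPs stood apart from its group. Its chi-square per gene was 5.07 and 3.93 against the other two replicates, which differed from each other by 2.33, and its mitochondrial share was 0.792%, against 0.902% and 0.901% in those.

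Per kilobase of exon, Fn1 was the highest member in both NMP groups and Sparc in all 4 neural progenitor groups. Fn1 reached 427 ± 19.1 CPM per kilobase in Hoxb1-null NMPs and 554 ± 7.85 in wild-type NMPs, and the member next to it stood at 61.0 (Sparc) and 55.1 (Col4a1). Sparc led with 165 ± 6.96 CPM per kilobase in Hoxb1 + SAG progenitors, 202 ± 4.36 with SAG, 147 ± 3.76 with Hoxb1 and 126 ± 5.34 in control progenitors. Behind Sparc came Col3a1, the type III chain, in both SAG groups (153 with Hoxb1 and 151 without it) and Col4a1, a type IV chain, in both groups without SAG (52.9 with Hoxb1 and 41.7 without it). Of the summed collagen level per kilobase, basement membrane chains held 58.5% in Hoxb1-null and 58.1% in wild-type NMPs, fibrillar chains 24.9% and 26.5%. In progenitors the fibrillar share was 49.99% with Hoxb1 and SAG, 48.7% with SAG, 38.9% with Hoxb1 and 31.9% in control progenitors. The basement membrane share in those groups was 32.4%, 36.7%, 42.8% and 48.7%. Col10a1, the chain of hypertrophic cartilage, never exceeded 3 reads in a library. Col6a5 did not exceed 7 reads and Col19a1 14 reads, and neither entered any test.

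**Figure D1:**
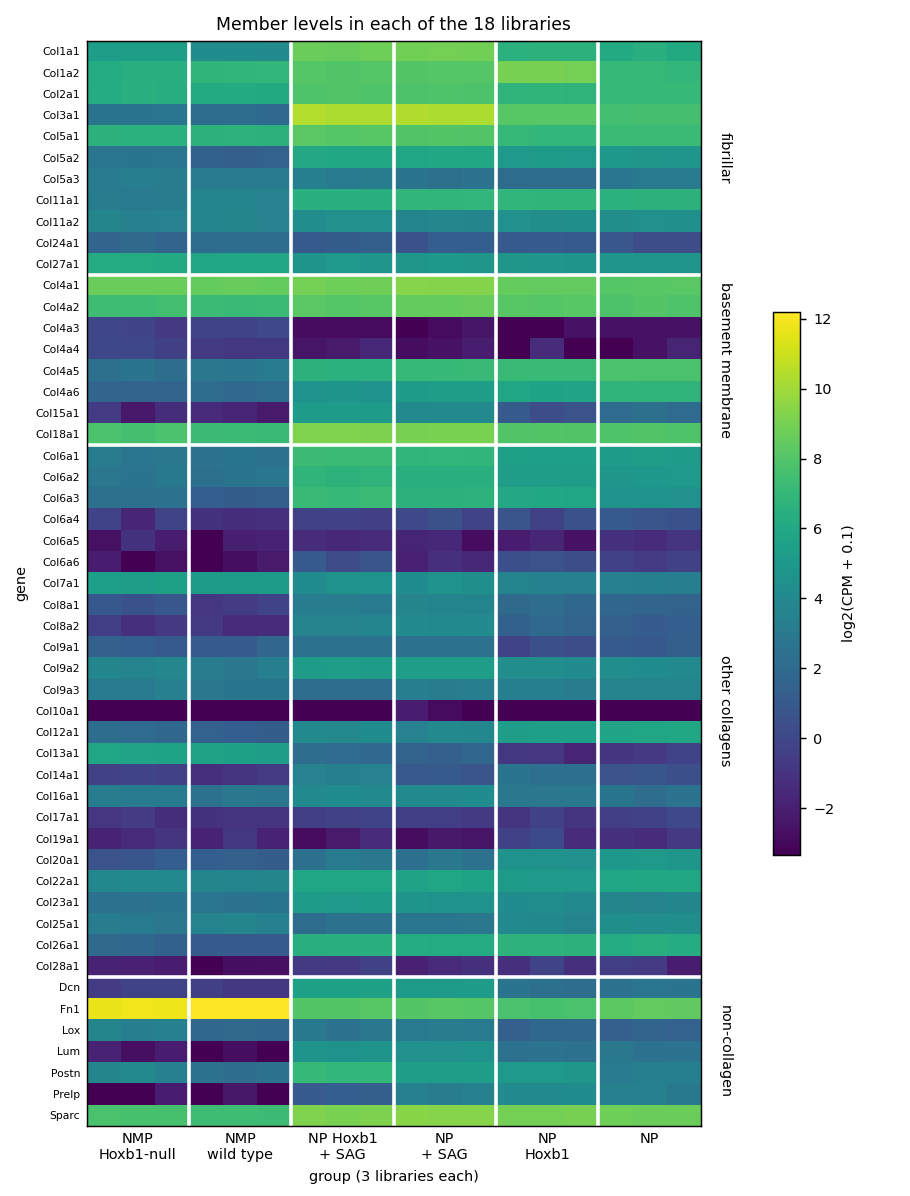
Level of each of the 51 members (rows, by class) in each of the 18 libraries (columns, 3 per group), as log2(CPM + 0.1) on 1 colour scale. Fn1 is brightest in the NMP columns, Col3a1 in the SAG columns, and Lum and Prelp are darkest in NMPs.

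Windows before an annotated start of 5 members are printed here because their changes differ in kind. Col1a2 rises with Hoxb1 without SAG and not with it, Col3a1 has the highest collagen level per kilobase with SAG, Col15a1 changes sign with SAG, and Postn (higher) and Col4a6 (lower) move the same way in Hoxb1-null NMPs as in progenitors with Hoxb1. The letters are the 250 bases before the annotated start, 5′ to 3′ on the gene's strand, from RefSeq on GRCm38.p6, and for Col1a2 the longest stretch of that window free of annotated exons. For Postn it is 1 of 2 annotated windows, and the other, chr3:54359017-54359266, holds no match to any motif searched. Positions count back from the RefSeq start. The counted Col1a2 gene begins before its RefSeq start, at chr6:4504814, so the printed Col1a2 stretch lies within that gene. Capitals mark matches to the motifs searched.
Col1a2 (chr6:4505370-4505492, + strand): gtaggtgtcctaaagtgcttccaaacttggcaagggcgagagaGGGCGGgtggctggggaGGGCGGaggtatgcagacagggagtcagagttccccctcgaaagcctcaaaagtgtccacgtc
Col3a1 (chr1:45311288-45311537, + strand): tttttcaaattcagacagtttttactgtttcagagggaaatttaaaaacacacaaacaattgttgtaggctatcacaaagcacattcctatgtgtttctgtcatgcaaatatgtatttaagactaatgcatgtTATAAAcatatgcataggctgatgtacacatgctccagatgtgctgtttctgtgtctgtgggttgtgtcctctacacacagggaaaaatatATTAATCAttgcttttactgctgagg
Postn (chr3:54360857-54361106, + strand): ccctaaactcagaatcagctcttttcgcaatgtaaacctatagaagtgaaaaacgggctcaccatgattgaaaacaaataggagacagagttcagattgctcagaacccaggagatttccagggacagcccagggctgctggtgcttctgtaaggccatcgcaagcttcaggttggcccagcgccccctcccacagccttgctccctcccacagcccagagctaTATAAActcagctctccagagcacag
Col15a1 (chr4:47207762-47208011, + strand): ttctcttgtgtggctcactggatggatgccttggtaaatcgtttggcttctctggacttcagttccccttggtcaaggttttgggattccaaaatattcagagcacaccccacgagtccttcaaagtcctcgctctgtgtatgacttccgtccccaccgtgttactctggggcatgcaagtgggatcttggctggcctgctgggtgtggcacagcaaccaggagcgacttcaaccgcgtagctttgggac
Col4a6 (chrX:141474077-141474326, - strand): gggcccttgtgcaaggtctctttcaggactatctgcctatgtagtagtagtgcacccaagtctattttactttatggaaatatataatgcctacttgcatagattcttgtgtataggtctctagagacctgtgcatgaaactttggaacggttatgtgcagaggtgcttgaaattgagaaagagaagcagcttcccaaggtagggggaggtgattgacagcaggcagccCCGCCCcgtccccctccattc

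Promoter windows were at hand for 38 of the 51 members, 42 windows in all since 4 members (Col18a1, Col6a2, Col9a1 and Postn) have 2 each. They were searched on both strands for 5 motifs. A PBX-HOX type motif, TGATNNAT, was found in 2 of the 42 windows and in 7.686% of 32841 windows of the same length over all genes. A GLI type motif, TGGGTGGTC, was in 0.225% of all windows and in none of the 42. The GC box GGGCGG was found in 22 of 42 and in 32.749% of all windows, TATAAA in 6 and in 12.369%, and CCAAT in 14 and in 33.857%. In the printed letters, Col3a1 holds ATTAATCA from 26 to 19 bases before its start and TATAAA from 117 to 112. Postn holds TATAAA from 26 to 21, Col1a2 holds GGGCGG from 205 to 200 and from 188 to 183, and Col4a6 holds CCGCCC from 21 to 16. The part of the Col1a2 window that is not printed also holds a CCAAT match, which begins 109 bases before the start. The printed matches do not overlap each other. A match in these letters is not evidence of binding. Type IV genes are annotated in head-to-head pairs. The starts of Col4a1 and Col4a2 overlap by 22 bases on chromosome 8, and those of Col4a6 and Col4a5 lie 1343 bases apart on chromosome X. Col4a3 and Col4a4 lie on opposite strands of chromosome 1.

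The first question was which matrix genes differ when NMPs lack Hoxb1. Most of the members that changed were higher in the null cells, among them the collagen crosslinking enzyme Lox, Postn, the type VIII chain Col8a1, the fibrillar chains Col5a2 and Col1a1 and the type VI chain Col6a3. Fibronectin, Col1a2 and the type IV chains Col4a5 and Col4a6 were lower. By edgeR, 22 of 40 tested members were higher, 7 were lower and 11 were not called, where 28.8% of all 15032 tested genes were called in either direction (14.9% higher and 13.9% lower). The median log2 change was 0.27 over the tested members and -0.00013 over all tested genes. 6 members rose at least 2-fold, a change called in 2.17% of all tested genes. 11 members had too few reads in NMPs to be tested, Lum, Prelp and Col15a1 among them. In such bulk samples a change in the share of cells of 1 kind and a change in RNA per cell cannot be told apart.

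Among fibrillar chains, 5 of 11 were higher and 3 lower in Hoxb1-null NMPs. Col1a1, the major chain of type I collagen, had 41.5, 39.7 and 39.0 CPM in Hoxb1-null NMPs against 18.4, 18.9 and 17.84 CPM in wild-type NMPs. Its partner Col1a2 had 76.0, 89.8 and 83.2 CPM in Hoxb1-null NMPs against 112, 118 and 122 CPM in wild-type NMPs. The null libraries were thus all higher for Col1a1 and all lower for Col1a2, without overlap, with log2 changes of 1.12 ± 0.065 (SE, adjusted p = 1.53e-11) and -0.50 ± 0.054 (adjusted p = 3.34e-07). How many of all tested genes separated likewise was not counted, so here and below non-overlap only describes the libraries. Col5a2, a type V chain that regulates fibril width, had 6.74, 6.41 and 6.65 CPM in Hoxb1-null NMPs against 2.75, 2.53 and 2.79 CPM in wild-type NMPs, a log2 change of 1.29 ± 0.14 (adjusted p = 3.41e-07). Its type V partner Col5a1 was at 97.4 and 103 CPM in null and wild-type cells and was not called. Col3a1 was low throughout, at 6.11, 6.19 and 6.59 CPM in Hoxb1-null NMPs and 4.39, 4.75 and 3.78 CPM in wild-type NMPs (log2 change 0.54 ± 0.13, adjusted p = 0.00344). Col2a1, the type II chain best known from cartilage and notochord, had 76.3, 91.0 and 81.0 CPM in null and 71.0, 71.9 and 68.0 CPM in wild-type cells, and rose by 0.23 ± 0.057 on the log2 scale (adjusted p = 0.00322). The type XI chain Col11a1 averaged 9.17 ± 0.386 CPM in null and 12.3 ± 0.406 CPM in wild-type NMPs, and Col24a1 3.48 ± 0.417 CPM in Hoxb1-null NMPs and 4.59 ± 0.238 CPM in wild-type NMPs, both lower in the null cells (adjusted p = 0.0015 and 0.0465). The call of Col24a1 ended without any 1 wild-type library, at an adjusted p of 0.0665, 0.158 and 0.0987.

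The called type IV chains split by genomic pair. Col4a1 and Col4a2, which form the common type IV trimer, were slightly higher, and Col4a5 and Col4a6, which lie next to each other on the X chromosome, were lower. The pair Col4a3 and Col4a4 on chromosome 1 differed in sign and was not called. Col4a3 averaged 0.737 CPM in Hoxb1-null and 0.849 CPM in wild-type NMPs (adjusted p = 0.687). Col4a4 averaged 0.857 CPM in Hoxb1-null and 0.484 CPM in wild-type NMPs (adjusted p = 0.0732). Col4a1 had 402, 398 and 421 CPM in Hoxb1-null NMPs against 372, 381 and 376 CPM in wild-type NMPs, and Col4a2 had 162, 165 and 177 CPM in Hoxb1-null NMPs against 152, 148 and 151 CPM in wild-type NMPs. The groups did not overlap for either gene, although the log2 changes were only 0.11 ± 0.035 and 0.16 ± 0.042 (adjusted p = 0.0213 and 0.00743). Col18a1, a heparan sulfate bearing collagen that gives rise to endostatin, had 224, 198 and 224 CPM in null and 160.2, 151 and 148 CPM in wild-type NMPs, a log2 change of 0.49 ± 0.047 (adjusted p = 8.1e-08). Col4a6 had 3.21, 3.23 and 3.02 CPM in null and 4.65, 3.92 and 4.65 CPM in wild-type NMPs, and Col4a5 averaged 5.37 ± 0.763 CPM in Hoxb1-null NMPs and 7.29 ± 0.814 CPM in wild-type NMPs. These falls were of -0.47 ± 0.15 and -0.43 ± 0.13 on the log2 scale (adjusted p = 0.0221 and 0.0171). The calls near the threshold depended on single libraries. The adjusted p of Col4a6 was 0.0709 and 0.0906 without wild-type replicate 1 or 3, and that of Col4a5 was 0.116 without wild-type replicate 3 and 0.0564 without null replicate 3. Without wild-type replicate 1, 2 or 3 that of Col4a1 was 0.111, 0.0803 or 0.0801, and without wild-type replicate 2 that of Col4a2 was 0.064.

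Of 17 other collagens tested in NMPs, 11 were higher in the null cells and 1 was lower. Col8a1 had 1.83, 1.39 and 1.79 CPM in Hoxb1-null NMPs against 0.458, 0.568 and 0.755 CPM in wild-type NMPs (log2 change 1.46 ± 0.28, adjusted p = 0.000452). Col6a3, the large chain of type VI collagen, had 5.17, 5.24 and 5.48 CPM in null against 2.36, 2.27 and 2.44 CPM in wild-type cells (log2 change 1.17 ± 0.15, adjusted p = 3.79e-06). For both genes every null library was above every wild-type library. Col26a1 averaged 3.42 ± 0.631 CPM in Hoxb1-null NMPs and 2.06 ± 0.0309 CPM in wild-type NMPs, and Col9a3, a chain of the fibril-associated type IX, had 8.44, 8.42 and 10.8 CPM in null and 6.88, 6.505 and 6.39 CPM in wild-type NMPs, both called higher. The 1 that fell was Col25a1, a transmembrane collagen of neurons, with 8.28 ± 1.09 CPM in null and 12.3 ± 1.09 CPM in wild-type cells (log2 change -0.57 ± 0.11, adjusted p = 0.000403). Col14a1 stood at 0.693, 0.836 and 0.739 CPM in null and 0.327, 0.413 and 0.581 CPM in wild-type NMPs and was not called (adjusted p = 0.118).

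Of the 5 tested genes that are not collagens, 3 were higher and 1 lower. Lox had 13.5, 9.87 and 11.2 CPM in Hoxb1-null NMPs against 3.67, 3.98 and 3.72 CPM in wild-type NMPs, the largest rise among all members (log2 change 1.59 ± 0.13, adjusted p = 7.39e-09). Postn had 13.5, 15.6 and 11.3 CPM in null against 5.37, 4.49 and 5.75 CPM in wild-type cells (log2 change 1.38 ± 0.13, adjusted p = 5.13e-08), and Sparc had 213, 202 and 200.2 CPM in Hoxb1-null NMPs against 169, 163 and 156 CPM in wild-type NMPs (log2 change 0.33 ± 0.042, adjusted p = 2.69e-06). Neither gene overlapped between genotypes. Fn1, by far the most abundant member in these cells, had 3387, 3704 and 3555 CPM in null against 4542, 4611 and 4673 CPM in wild-type NMPs (log2 change -0.38 ± 0.034, adjusted p = 2.47e-08). Dcn stayed under 1 CPM in every NMP library, at 0.567, 0.781 and 0.801 in null and 0.655, 0.465 and 0.465 in wild-type cells (adjusted p = 0.356). Lum was at 0.189, 0.0558 and 0.123 CPM in null and 0, 0.0516 and 0 CPM in wild-type NMPs, and Prelp had 2 reads over each genotype's 3 libraries. Exons of other genes on the opposite strand overlap 9.68% of the exon length of Prelp, 6.07% of Col9a3 and 3.16% of Fn1, and since the strand setting of the counting is not given, these reads cannot be told apart.

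Some markers of other cells moved with genotype, where 14.9% of all tested genes were called higher and 13.9% lower. Of 10 primitive endoderm markers, another source of type IV collagen and Sparc, 8 were tested and 5 were higher in null NMPs, their summed level being 102 to 127 CPM in null and 76.4 to 81.5 CPM in wild-type libraries with Gata4 the most abundant (59.2 CPM in null and 38.9 CPM in wild-type cells). Of 6 endothelial markers, 3 of 4 tested were higher, with sums of 31.6 to 41.4 CPM in Hoxb1-null NMPs and 20.3 to 23.3 CPM in wild-type NMPs and Emcn at 0 in the null libraries. The 12 mesenchyme markers summed to 290.3 to 293 CPM in null and 287 to 306 CPM in wild-type NMPs, with 3 of 10 tested higher and 2 lower. Of 6 NMP markers 5 were lower and Sox2 was higher (16.4 CPM in null and 13.4 CPM in wild-type cells), with sums of 1447 to 1525 CPM in null and 1639 to 1816 CPM in wild-type cells. Their part in the collagen differences was not tested. Without null replicate 3, 22 members were called higher and 6 lower. Without wild-type replicate 3 the lower calls fell to 4.

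In neural progenitors without SAG, Hoxb1 went with a shift among collagens in both directions. Type I collagen's Col1a2, Postn, the fibril-associated Col14a1 and the type VI chains Col6a1, Col6a2, Col6a3 and Col6a6 were higher, whereas Col15a1, Col4a5, Col4a6 and Fn1 were lower. By edgeR, 18 of 46 tested members were higher in Hoxb1 progenitors than in control progenitors, 13 were lower and 15 were not called. The background was wide, since 46.2% of all 16238 tested genes were called (24.1% higher and 22.1% lower). Members had a median log2 change of 0.16 and all tested genes one of 0.0031. 5 members were at least 2-fold higher and 2 at least 2-fold lower, against 2.85% and 3.04% of all tested genes.

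Col1a2 gave the clearest fibrillar difference. It had 525, 507 and 498 CPM in Hoxb1 progenitors against 129.9, 129 and 126 CPM in control progenitors, a log2 change of 2.00 ± 0.035 (adjusted p = 2.58e-36). Col1a1 had 97.3, 98.3 and 102 CPM with Hoxb1 against 71.1, 82.9 and 69.7 CPM in controls, and Col3a1 had 281, 281 and 281 CPM with Hoxb1 against 183, 199 and 197 CPM in controls. All libraries with Hoxb1 lay above all control libraries for these chains, although the log2 changes of Col1a1 and Col3a1 were 0.42 ± 0.057 and 0.55 ± 0.035 (adjusted p = 3.35e-06 and 5.72e-17). Col2a1 was lower, with 109, 113 and 108 CPM in Hoxb1 progenitors against 133, 134 and 132 CPM in controls (log2 change -0.27 ± 0.037, adjusted p = 9.11e-08). The type V chains Col5a3 and Col5a1 were also lower, averaging 4.48 ± 0.172 and 126 ± 2.49 CPM with Hoxb1 against 7.84 ± 1.01 and 154 ± 2.17 CPM in controls. Col5a2 had 33.7, 34.8 and 31.8 CPM with Hoxb1 and 30.5, 30.0 and 28.5 CPM in controls, a call that ended without control replicate 3 (adjusted p = 0.0562) or Hoxb1 replicate 2 (adjusted p = 0.0735). In all, 5 of 11 fibrillar chains were higher and 3 lower.

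Of 6 basement membrane chains tested without SAG, 2 were higher and 3 lower. Col15a1, a collagen between basement membrane and fibrils, had 1.98, 1.19 and 1.45 CPM in Hoxb1 progenitors against 4.21, 5.17 and 4.21 CPM in controls (log2 change -1.53 ± 0.18, adjusted p = 3.32e-09). Col4a6 had 57.5, 51.6 and 53.2 CPM with Hoxb1 against 109.997, 109.9 and 108 CPM in controls (log2 change -1.002 ± 0.046, adjusted p = 1.05e-21), and Col4a5 averaged 144 ± 4.98 CPM with Hoxb1 and 217 ± 6.28 CPM in controls (log2 change -0.58 ± 0.035). These falls left no overlap between groups. Col4a1 had 371, 356 and 355 CPM with Hoxb1 against 271, 285 and 296 CPM in controls (log2 change 0.35 ± 0.036, adjusted p = 1.7e-10), and Col4a2 had 282, 277 and 281 CPM with Hoxb1 against 234, 258 and 244 CPM in controls (log2 change 0.20 ± 0.034). Col18a1 had 256, 259 and 251 CPM with Hoxb1 and 246, 251 and 246 CPM in controls and was not called (adjusted p = 0.171).

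Other collagens were led by Col14a1, an organiser of fibril surfaces, with 6.07, 4.89 and 4.98 CPM in Hoxb1 progenitors against 1.497, 1.65 and 1.26 CPM in controls (log2 change 1.86 ± 0.19, adjusted p = 4.02e-11). Col6a3 had 66.4, 63.5 and 57.5 CPM with Hoxb1 against 24.4, 25.1 and 23.0 CPM in controls (log2 change 1.38 ± 0.073, adjusted p = 8.87e-14), far more than its partners Col6a1 and Col6a2, whose log2 changes were 0.18 ± 0.051 and 0.37 ± 0.056. Groups were fully separate for Col14a1 and Col6a3. Col6a6 averaged 1.34 ± 0.125 CPM with Hoxb1 and 0.663 ± 0.0768 CPM in controls, a call that ended without control replicate 2 (adjusted p = 0.0532). Col9a1, Col22a1 and Col25a1 were lower, at 1.08, 33.0 and 14.7 CPM with Hoxb1 against 2.11, 59.4 and 20.04 CPM in controls. Col9a3 had 10.2, 10.2 and 9.40 CPM with Hoxb1 against 12.3, 12.1 and 12.2 CPM in controls, and its call ended without Hoxb1 replicate 3 (adjusted p = 0.0545). Col8a1 was at 4.02, 4.52 and 3.53 CPM with Hoxb1 and 3.35, 3.30 and 3.01 CPM in controls and was not called (adjusted p = 0.0928). Of 22 tested, 8 were higher and 6 lower.

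Postn had 33.3, 33.0 and 29.9 CPM in Hoxb1 progenitors against 8.77, 10.3 and 10.2 CPM in controls (log2 change 1.73 ± 0.077, adjusted p = 3.94e-22), and Prelp had 17.79, 17.79 and 18.6 CPM with Hoxb1 against 11.1, 10.6 and 7.64 CPM in controls (log2 change 0.89 ± 0.10, adjusted p = 1.09e-09). Sparc had 486, 489 and 509.6 CPM with Hoxb1 against 444, 413 and 414 CPM in controls (log2 change 0.23 ± 0.033). Fn1 went the other way, with 213, 208 and 211 CPM with Hoxb1 against 312, 359 and 337 CPM in controls (log2 change -0.66 ± 0.050, adjusted p = 5e-09). These 4 genes did not overlap between groups, and the share of all tested genes that did not was not counted. Lox, Lum and Dcn were not called. Lox had 2.66, 3.71 and 3.66 CPM with Hoxb1 and 2.64, 3.09 and 2.87 CPM in controls. Lum had 5.73, 5.86 and 5.39 CPM with Hoxb1 and 7.27, 5.31 and 5.82 CPM in controls, and Dcn 6.27, 5.12 and 4.84 CPM with Hoxb1 and 5.56, 6.82 and 6.24 CPM in controls, so that both groups overlapped for these proteoglycans. Among marker lists, mesenchyme genes summed to 118 to 121 CPM with Hoxb1 against 105 to 106 CPM in controls, where Tcf21 was at 0, and 4 of 12 were higher and 1 lower. The marker counts here stand against 24.1% of all tested genes called higher and 22.1% lower. Neural crest genes summed to 124 to 129 CPM with Hoxb1 against 90.5 to 99.2 CPM in controls, 4 of 7 higher, and cartilage and notochord genes to 255 to 260.2 CPM with Hoxb1 against 301 to 314 CPM in controls, 4 of 6 tested lower and Sox9 higher (167 CPM with Hoxb1 and 149 CPM in controls). Primitive endoderm genes summed to 51.4 to 59.8 CPM with Hoxb1 against 10.4 to 13.97 CPM in controls, mostly from Dab2 (48.9 CPM with Hoxb1 and 6.47 CPM in controls), with 1 of 7 tested higher and Afp at 0 in both groups. Endothelial genes summed to 11.4 to 13.6 CPM with Hoxb1 against 27.2 to 29.3 CPM in controls, with 2 of 5 tested lower and 0 higher. The part of the cells marked by these lists in the matrix differences was not tested.

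With SAG present, Hoxb1 again went with more Postn, Col14a1, Col6a1, Col6a2, Col6a3 and Col6a6, but Col15a1 was higher here, Prelp and Col1a1 were lower and Col1a2 and Col3a1 were not called. By edgeR, 20 of 46 tested members were higher in Hoxb1 + SAG progenitors than in SAG progenitors, 13 were lower and 13 were not called, where 43.4% of all tested genes were called (21.4% higher and 21.9% lower). The median log2 change was 0.094 over tested members and 0.0012 over all tested genes. 5 members were at least 2-fold higher and 2 at least 2-fold lower, against 2.65% and 2.37% of all tested genes.

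Col1a2 had 276, 253 and 272 CPM in Hoxb1 + SAG progenitors against 268, 279 and 272 CPM in SAG progenitors, and Col3a1 had 1354, 1234 and 1266 CPM with Hoxb1 and SAG against 1292, 1240.3 and 1252 CPM with SAG. Both overlapped between groups, with log2 changes of -0.025 ± 0.031 and 0.031 ± 0.031 (adjusted p = 0.551 and 0.437). Col1a1 was lower, with 424, 385 and 427 CPM with Hoxb1 and SAG against 475, 497 and 473 CPM with SAG (log2 change -0.22 ± 0.042, adjusted p = 0.000231). Col11a1 had a log2 change of -0.37 ± 0.033, while its partner Col11a2 rose by 0.70 ± 0.071, averaging 21.7 ± 2.10 CPM with Hoxb1 and SAG against 13.4 ± 0.706 CPM with SAG. Col5a3 and Col5a1 were higher, averaging 9.36 ± 0.849 and 281 ± 13.4 CPM with Hoxb1 and SAG against 5.73 ± 0.459 and 257 ± 5.55 CPM with SAG. Col2a1 had 241, 255 and 242 CPM with Hoxb1 and SAG against 231, 239 and 232 CPM with SAG, and Col5a2 had 66.5, 62.4 and 63.7 CPM with Hoxb1 and SAG against 58.8, 61.7 and 59.6 CPM with SAG. The calls for Col2a1 and Col5a2 (adjusted p = 0.0418 and 0.0451) did not hold in general, being 0.0974 and 0.14 with DESeq2 and 0.149 and 0.167 without SAG replicate 1. Of 11 fibrillar chains, 5 were higher and 2 lower.

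All 6 tested basement membrane chains were called, 2 higher and 4 lower. Col15a1 had 38.2, 37.1 and 37.2 CPM in Hoxb1 + SAG progenitors against 15.4, 15.9 and 15.9 CPM in SAG progenitors (log2 change 1.26 ± 0.059, adjusted p = 1.62e-21). Col18a1 had 588, 575 and 570.1 CPM with Hoxb1 and SAG against 526, 544 and 542 CPM with SAG (log2 change 0.11 ± 0.028, adjusted p = 0.00126). Col4a1 had 493, 435 and 457 CPM with Hoxb1 and SAG against 657, 642 and 649 CPM with SAG, and Col4a2 302, 278 and 285 CPM with Hoxb1 and SAG against 369, 373 and 382 CPM with SAG. Both type IV chains were thus lower in every Hoxb1 + SAG library, with log2 changes of -0.49 ± 0.034 and -0.37 ± 0.032 (adjusted p = 4.45e-15 and 5e-13). Col4a6 had 24.4, 26.3 and 23.9 CPM with Hoxb1 and SAG against 38.4, 40.3 and 40.0 CPM with SAG (log2 change -0.66 ± 0.050, adjusted p = 1.22e-14), and Col4a5 averaged 99.2 ± 2.49 CPM with Hoxb1 and SAG against 136 ± 3.70 CPM with SAG (log2 change -0.45 ± 0.034).

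Col14a1 had 11.8, 10.5 and 11.9 CPM in Hoxb1 + SAG progenitors against 1.88, 2.02 and 1.60 CPM in SAG progenitors, the largest rise together with that of Col6a6 (log2 change 2.63 ± 0.12, adjusted p = 4.63e-22). Col6a3 had 138, 133 and 154 CPM with Hoxb1 and SAG against 98.8, 102 and 106 CPM with SAG (log2 change 0.48 ± 0.047), and the rarer type VI chain Col6a6 averaged 1.61 ± 0.524 CPM with Hoxb1 and SAG against 0.254 ± 0.0905 CPM with SAG (log2 change 2.60 ± 0.31, adjusted p = 2.85e-09). Col23a1, a transmembrane collagen, averaged 36.3 ± 2.06 CPM with Hoxb1 and SAG against 25.0 ± 0.689 CPM with SAG and was higher as well. Col9a3 had 4.51, 4.51 and 4.47 CPM with Hoxb1 and SAG against 9.70, 9.36 and 9.68 CPM with SAG (log2 change -1.08 ± 0.091, adjusted p = 3.5e-13). The type VIII chains were lower too, Col8a1 with 9.32, 9.53 and 8.79 CPM with Hoxb1 and SAG against 13.3, 12.6 and 12.5 CPM with SAG (log2 change -0.46 ± 0.078, adjusted p = 4.79e-06) and Col8a2 with a mean of 12.2 ± 0.256 CPM with Hoxb1 and SAG against 17.3 ± 0.937 CPM with SAG. All of these genes were separate between groups. Of 22 other collagens tested, 10 were higher and 4 lower.

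Postn had 133, 123 and 123 CPM in Hoxb1 + SAG progenitors against 40.8, 41.6 and 40.8 CPM in SAG progenitors (log2 change 1.62 ± 0.042, adjusted p = 1.68e-30), without overlap. Prelp had 2.08, 2.43 and 2.49 CPM with Hoxb1 and SAG against 10.6, 9.25 and 10.9 CPM with SAG (log2 change -2.12 ± 0.12, adjusted p = 2.36e-18), the largest fall of any member. Dcn had 47.2, 46.1 and 47.9 CPM with Hoxb1 and SAG against 35.4, 34.4 and 35.9 CPM with SAG (log2 change 0.42 ± 0.049, adjusted p = 1.39e-09), also separate between groups. Lum had 26.3, 25.5 and 26.0 CPM with Hoxb1 and SAG against 22.7, 23.2 and 24.0 CPM with SAG and Lox 7.53, 5.90 and 7.12 CPM with Hoxb1 and SAG against 8.15, 9.01 and 8.16 CPM with SAG. The changes of Lum and Lox were 0.16 ± 0.058 and -0.30 ± 0.10 on the log2 scale, and both calls (adjusted p = 0.0254 and 0.0115) ended with DESeq2 (adjusted p = 0.12 and 0.0735) and without SAG replicate 2 (adjusted p = 0.0714 and 0.0652). Sparc had 579, 533 and 553 CPM with Hoxb1 and SAG against 697, 671 and 671 CPM with SAG (log2 change -0.29 ± 0.031, adjusted p = 4.22e-10). Fn1 had 268, 259 and 285 CPM with Hoxb1 and SAG and 259, 289 and 278 CPM with SAG and was not called (adjusted p = 0.774). Mesenchyme markers moved in the same libraries, where 21.4% of all tested genes were called higher and 21.9% lower. They summed to 297 to 316 CPM with Hoxb1 and SAG against 212 to 218 CPM with SAG, with 10 of 12 higher and 1 lower. Cartilage and notochord markers summed to 148 to 149 CPM with Hoxb1 and SAG against 273 to 285 CPM with SAG, 5 of 6 tested lower, and neural progenitor markers to 786 to 832 CPM with Hoxb1 and SAG against 949 to 983 CPM with SAG, 3 of 5 lower. Primitive endoderm markers summed to 75.4 to 80.0 CPM with Hoxb1 and SAG against 39.1 to 40.9 CPM with SAG, with 2 of 7 tested higher, Dab2 the most abundant (62.0 CPM with Hoxb1 and SAG and 25.7 CPM with SAG) and Afp at 0 with Hoxb1 and SAG. Neural crest markers summed to 68.0 to 72.8 CPM with Hoxb1 and SAG against 55.1 to 57.7 CPM with SAG, 3 of 7 higher and 2 lower. Endothelial markers summed to 24.9 to 27.1 CPM with Hoxb1 and SAG against 31.3 to 33.8 CPM with SAG. Of these, 1 of 5 tested was higher and 3 lower. The part of the cells marked by these lists in the matrix differences with SAG was not tested.

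**Figure D2:**
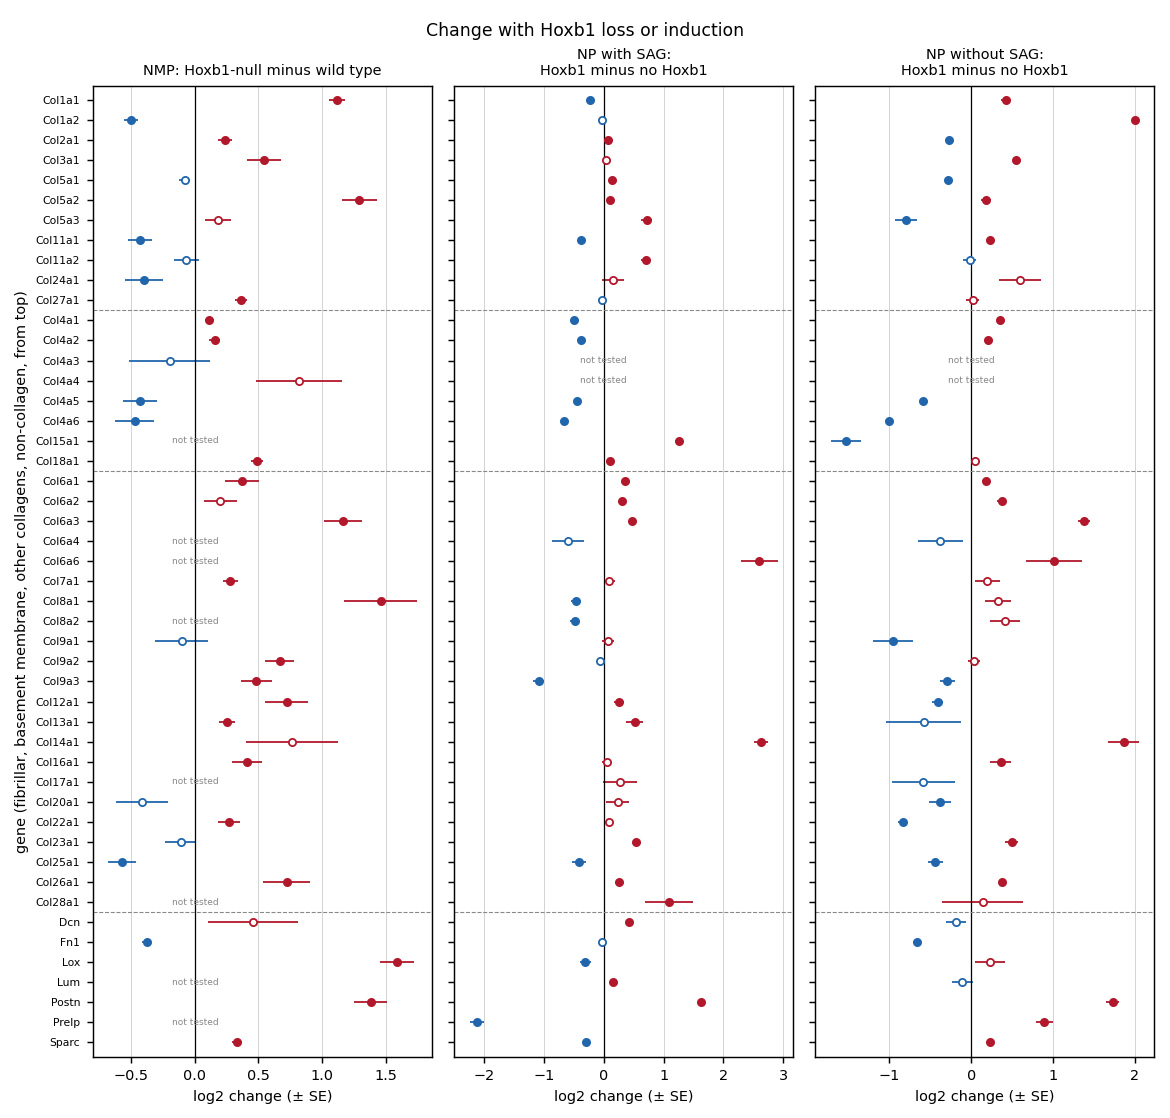
Log2 change with its SE for each tested member in Hoxb1-null against wild-type NMPs (left), in Hoxb1 + SAG against SAG progenitors (middle) and in Hoxb1 against control progenitors (right). Filled points were called at an adjusted p under 0.05, open points were not, red is above 0 and blue below, and Postn lies at 1.38, 1.62 and 1.73 in the 3 panels.

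The difference of the Hoxb1 effects, with SAG minus without SAG, was called for 15 members upward and 13 downward of 46 tested, where 35.5% of all tested genes were called (16.8% upward and 18.6% downward). Prelp had the largest negative difference (-3.01 ± 0.16, adjusted p = 4.5e-19) and Col1a2 the next (-2.03 ± 0.047, adjusted p = 1.44e-31), while Col15a1 had the largest positive one (2.79 ± 0.19, adjusted p = 1.04e-15). Col6a6 and Col5a3 followed with 1.59 ± 0.50 and 1.51 ± 0.17. The difference for Postn was -0.10 ± 0.092, not called (adjusted p = 0.412), with a rise in each setting. The calls of both settings cross as follows, each count being of 46 tested members and each share of all 16238 tested genes. 9 members were higher with Hoxb1 in both settings, as were 10.4% of all genes. They are Postn, Col14a1, Col23a1, Col26a1, Col5a2, Col6a1, Col6a2, Col6a3 and Col6a6, of which Col5a2 lost its call in each setting under the alternatives given above. 4 were lower in both, Col25a1, Col4a5, Col4a6 and Col9a3, as were 9.21% of all genes. 6 were higher without SAG and lower with it, Col1a1, Col4a1, Col4a2, Col11a1, Sparc and Prelp, against 3.34% of all genes. 5 were lower without SAG and higher with it, Col2a1, Col5a1, Col5a3, Col12a1 and Col15a1, against 2.27% of all genes. The call of Col2a1 with SAG ended as given above. The difference for Col14a1 ended without control replicate 2 (adjusted p = 0.0775), that for Lox ended with DESeq2 (adjusted p = 0.0948), and that for Col4a5 ended with DESeq2 (adjusted p = 0.0708). SAG and library set cannot be told apart in these differences.

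**Figure D3:**
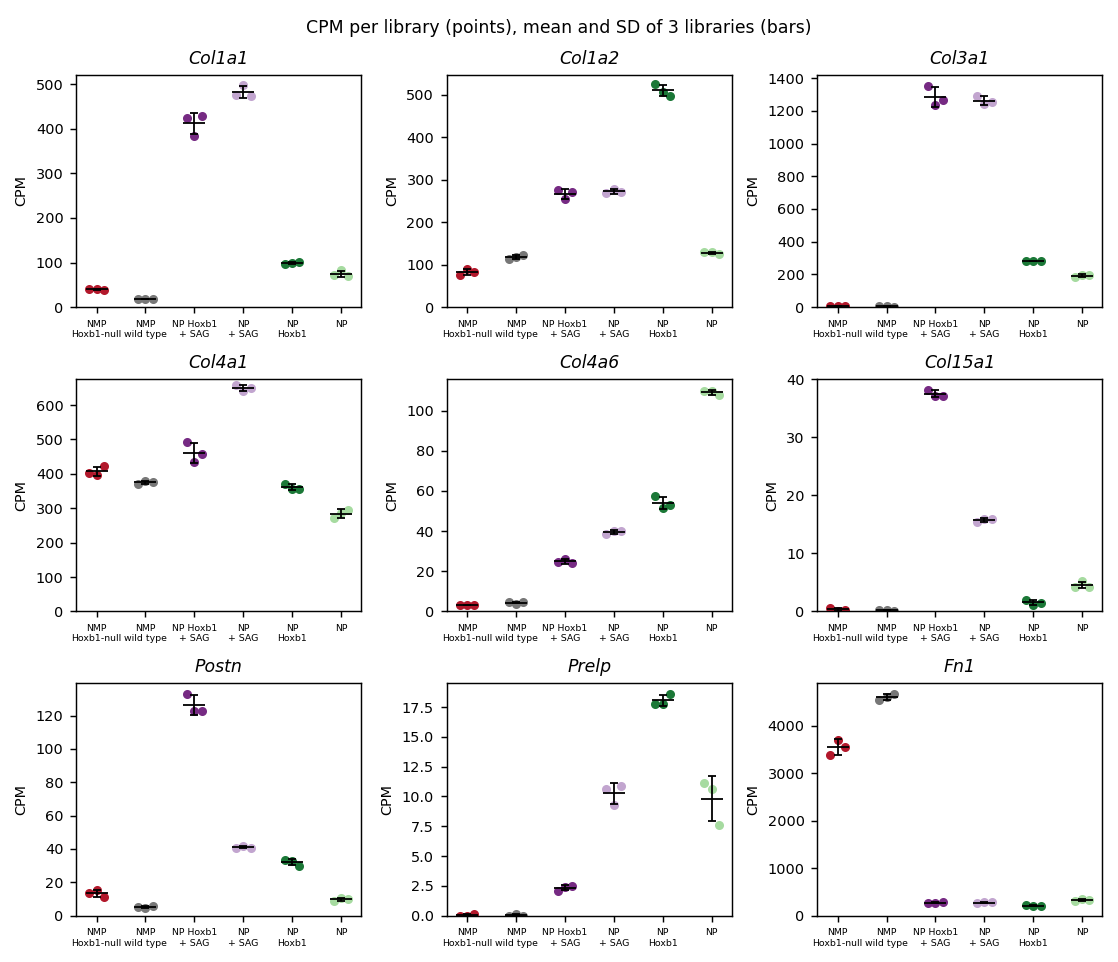
CPM of 9 members in each library (points), with the mean and SD of each group of 3 (bars), 1 panel per gene on its own linear axis from 0. Col1a2 peaks in Hoxb1 progenitors, Postn in Hoxb1 + SAG progenitors, Col15a1 in Hoxb1 + SAG progenitors and Fn1 in NMPs.

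38 members and 14531 genes were tested in NMPs and in progenitors. 3 of these members, Col25a1, Col4a5 and Col4a6, were lower in Hoxb1-null NMPs and lower with Hoxb1 in both progenitor settings, as were 1.27% of all genes. 5 members, Postn, Col5a2, Col6a1, Col6a3 and Col26a1, were higher in Hoxb1-null NMPs and higher with Hoxb1 in both settings, as were 1.64% of all genes. The progenitor calls of Col5a2 and the NMP calls of Col4a5 and Col4a6 end under alternatives given above. Col9a3 was the 1 member higher in Hoxb1-null NMPs and lower with Hoxb1 in both settings, against 2.01% of all genes, and its call without SAG ended as given above. Col2a1 and Col12a1 were higher in Hoxb1-null NMPs, lower with Hoxb1 without SAG and higher with Hoxb1 with SAG, against 0.406% of all genes. Col22a1 was higher in Hoxb1-null NMPs, lower with Hoxb1 without SAG and not called with SAG. Col1a1, Col4a1, Col4a2 and Sparc were higher in Hoxb1-null NMPs, higher with Hoxb1 without SAG and lower with Hoxb1 with SAG. Of all genes, 0.826% had these calls. Col8a1 and Lox were higher in Hoxb1-null NMPs, not called without SAG and lower with Hoxb1 with SAG. Col11a1 was lower in Hoxb1-null NMPs, higher with Hoxb1 without SAG and lower with Hoxb1 with SAG, against 0.681% of all genes. Col1a2 was lower in Hoxb1-null NMPs, higher with Hoxb1 without SAG and not called with SAG. For the calls of Col22a1, Col8a1, Lox and Col1a2 the share of all genes was not counted. The NMP calls of Col4a1 and Col4a2 and the calls of Col2a1 and Lox with SAG end under alternatives given above.

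SAG went with higher Col1a1, Col3a1, Col6a1, Col6a2, Col6a3, Dcn, Lum and Postn, and with lower Col4a5, Col4a6, Col12a1, Col20a1 and Col25a1, both without and with Hoxb1. Summed over the 11 fibrillar chains, levels were 2709 ± 95.1 CPM in Hoxb1 + SAG progenitors against 1330.3 ± 19.3 CPM in Hoxb1 progenitors, and 2737 ± 19.97 CPM in SAG progenitors against 869 ± 15.8 CPM in controls. Without Hoxb1, 28 of 46 tested members were higher with SAG, 13 lower and 5 not called, where 72.7% of all tested genes were called (36.5% higher and 36.3% lower). At least 2-fold changes were called for 21 members upward and 5 downward, against 7.46% and 7.43% of all tested genes. The median log2 change was 0.78 over tested members and 0.011 over all tested genes. With Hoxb1, 28 were higher, 11 lower and 7 not called, where 72.2% of all tested genes were called (36.4% higher and 35.8% lower), with medians of 0.94 over tested members and 0.013 over all tested genes. At least 2-fold changes were called for 22 members upward and 6 downward, against 7.59% and 7.64% of all tested genes.

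Per kilobase, Col3a1 was the highest collagen in both SAG groups. Its 1292, 1240.3 and 1252 CPM in SAG progenitors against 183, 199 and 197 CPM in controls gave a log2 change of 2.71 ± 0.035 (adjusted p = 2.19e-41), and with Hoxb1 the change was 2.19 ± 0.034. Col1a1 changed by 2.69 ± 0.051 without and 2.05 ± 0.049 with Hoxb1. Its partner Col1a2 rose by 1.09 ± 0.035 without Hoxb1 and changed by -0.94 ± 0.032 with it (adjusted p = 6.14e-27), being at 267 CPM in Hoxb1 + SAG and 510.1 CPM in Hoxb1 progenitors. Among basement membrane chains, Col15a1 rose by 1.801 ± 0.10 without and 4.59 ± 0.11 with Hoxb1, Col18a1 by 1.12 ± 0.030 and 1.18 ± 0.030, and Col4a1 by 1.20 ± 0.035 and 0.35 ± 0.035. Col4a6 changed by -1.46 ± 0.044 and -1.12 ± 0.052, and Col4a5 by -0.67 ± 0.033 and -0.54 ± 0.036, each lower with SAG. Col2a1 rose by 0.82 ± 0.034 without and 1.16 ± 0.034 with Hoxb1, and the type V chain Col5a3 changed by -0.46 ± 0.11 and 1.06 ± 0.12, opposite in sign.

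Other collagens with large rises were Col8a2, the type VIII chain of Descemet's membrane, at 17.3 ± 0.937 CPM with SAG against 2.37 ± 0.207 CPM in controls (log2 change 2.86 ± 0.12, adjusted p = 9.85e-24), and the transmembrane Col13a1, at 2.97 ± 0.379 CPM with SAG against 0.567 ± 0.181 CPM in controls. Col6a3 rose by 2.08 ± 0.065 without and 1.18 ± 0.053 with Hoxb1, and Col9a1 by 1.34 ± 0.15 and 2.37 ± 0.18. Falls were led by Col20a1, at 5.98 ± 1.247 CPM with SAG against 31.2 ± 1.62 CPM in controls (log2 change -2.36 ± 0.15), Col12a1, at 14.02 ± 1.92 CPM with SAG against 57.0 ± 3.43 CPM in controls (log2 change -2.01 ± 0.070), and Col25a1 (log2 change -1.57 ± 0.095). Dcn rose by 2.50 ± 0.080 without and 3.11 ± 0.079 with Hoxb1, Lum by 1.93 ± 0.088 and 2.19 ± 0.088, Postn by 2.08 ± 0.069 and 1.98 ± 0.048, and Lox by 1.56 ± 0.14 and 1.03 ± 0.14. Sparc rose by 0.68 ± 0.032 and 0.16 ± 0.032. Prelp was not called without Hoxb1 (0.065 ± 0.10, adjusted p = 0.581) and changed by -2.95 ± 0.12 with it (adjusted p = 5.18e-24), while Fn1 changed by -0.28 ± 0.048 and 0.36 ± 0.049. These SAG values and the Hoxb1 values above share libraries. Mesenchyme markers summed to 297 to 316 CPM in Hoxb1 + SAG against 118 to 121 CPM in Hoxb1 progenitors, with 12 of 12 higher, and to 212 to 218 CPM with SAG against 105 to 106 CPM in controls, with 10 of 12 higher. The marker counts stand against 36.4% of all tested genes called higher and 35.8% lower with Hoxb1. Without Hoxb1 these shares were 36.5% and 36.3%. Foxc1, a mesenchymal forkhead factor, was at 42.2 CPM with SAG and 14.6 CPM in controls. Neural progenitor markers summed to 949 to 983 CPM with SAG against 1241 to 1359 CPM in controls, with 1 of 5 higher and 3 lower. Primitive endoderm markers summed to 39.1 to 40.9 CPM with SAG against 10.4 to 13.97 CPM in controls, with 6 of 7 tested higher and Afp at 0 in controls. With Hoxb1 they summed to 75.4 to 80.0 CPM with SAG against 51.4 to 59.8 CPM without it, with 5 higher and 1 lower. Neural crest markers summed to 55.1 to 57.7 CPM with SAG against 90.5 to 99.2 CPM in controls, with 4 of 7 higher and 3 lower. Endothelial markers summed to 31.3 to 33.8 CPM with SAG against 27.2 to 29.3 CPM in controls, with 4 of 5 tested higher and 1 lower. The part of the cells marked by these lists was not tested.

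**Figure D4:**
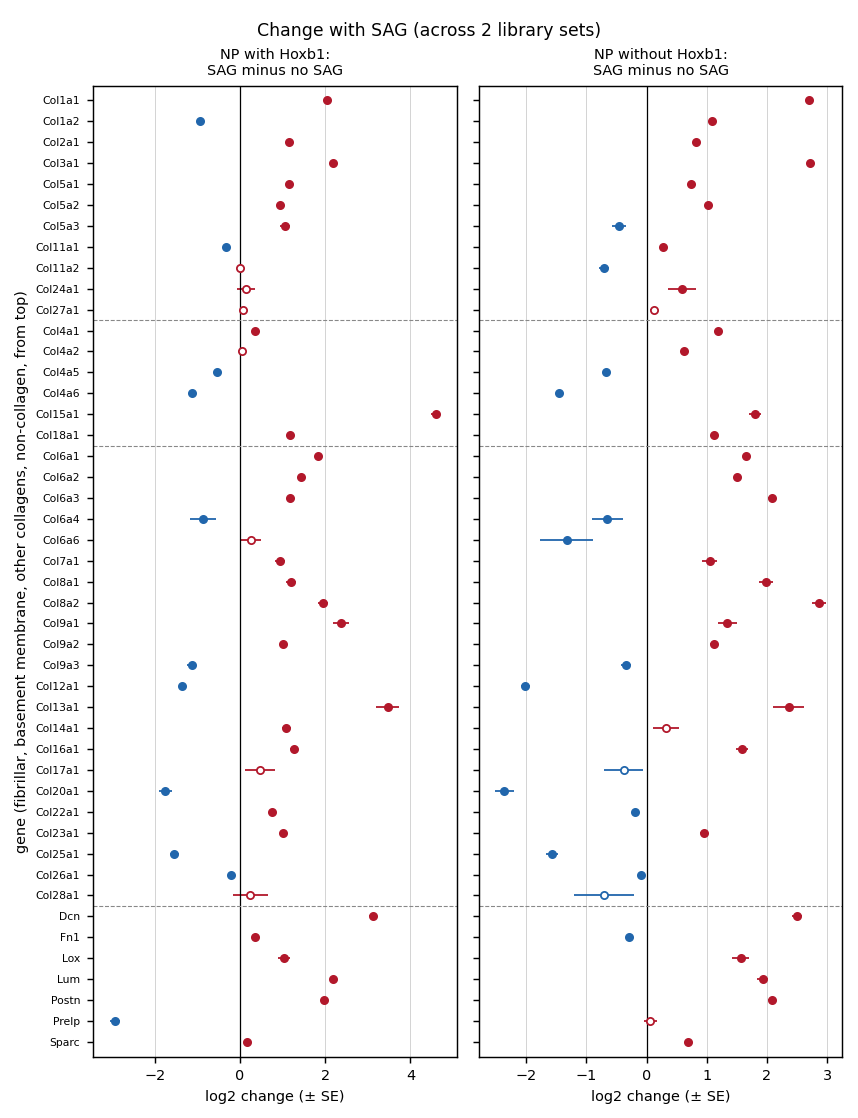
Log2 change with its SE for each tested member with SAG against without SAG, in progenitors with Hoxb1 (left) and without Hoxb1 (right), across 2 sets of library numbers. Filled points were called at an adjusted p under 0.05, red is above 0 and blue below, and Col3a1 lies at 2.19 and 2.71.

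Most members were lower in wild-type NMPs than in control progenitors, while Fn1 and Col13a1 were far higher. By edgeR over all 18 libraries, 9 of 48 tested members were higher in wild-type NMPs, 36 were lower and 3 were not called, where 86% of all 16761 tested genes were called (42.3% higher and 43.7% lower). The median log2 change was -1.24 over tested members and -0.019 over all tested genes. At least 2-fold changes were called for 7 members upward and 26 downward, against 18.3% and 25% of all tested genes. Cell type and library set cannot be told apart here. Fn1 was at 4609 ± 65.3 CPM in wild-type NMPs against 336 ± 23.3 CPM in control progenitors (log2 change 3.78 ± 0.046, adjusted p = 7.21e-40). Col13a1, a transmembrane collagen, was at 45.6 ± 3.73 CPM in NMPs against 0.567 ± 0.181 CPM in controls (log2 change 6.31 ± 0.15), and Col7a1, of anchoring fibrils, at 35.2 ± 0.205 CPM in NMPs against 10.4 ± 0.484 CPM in controls (log2 change 1.77 ± 0.10). Col27a1 and Col24a1 were the 2 fibrillar chains that were higher in NMPs, by 1.05 ± 0.062 and 1.74 ± 0.20, and Col4a1 was higher by 0.41 ± 0.038. Lower in NMPs were Col3a1 (4.30 ± 0.492 CPM in NMPs against 193 ± 8.62 CPM in controls, log2 change -5.48 ± 0.066), Col5a2 (-3.47) and Col11a1 (-3.00) among fibrillar chains. Col4a5 was at 7.29 ± 0.814 CPM in NMPs against 217 ± 6.28 CPM in controls (log2 change -4.90 ± 0.061), Col4a6 changed by -4.64 ± 0.073 and Col15a1 by -4.51 ± 0.29. Among other collagens Col26a1, Col12a1 and Col20a1 changed by -5.28 ± 0.085, -4.51 ± 0.11 and -3.68 ± 0.16. Dcn changed by -3.56 ± 0.20. Lum had 1 read in the 3 wild-type NMP libraries against 259 in the control progenitors, a ratio of 0.00283 (95% counting interval 7.13e-05 to 0.0159), and Prelp had 2 against 413 reads, a ratio of 0.00355 (0.000428 to 0.0129). Lox was at 3.79 ± 0.165 CPM in NMPs against 2.87 ± 0.225 CPM in controls, and its call (adjusted p = 0.0338) ended without control replicate 1 or 3 or wild-type replicate 2 (adjusted p = 0.101, 0.0594 and 0.0858). Col1a2 was lower by a small step (log2 change -0.13 ± 0.044), a call that ended without wild-type replicate 1 (adjusted p = 0.0929).

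Chains of 1 trimer did not move together throughout, as their ratios per kilobase show. Type I collagen is mostly made of Col1a1 and Col1a2 in a fixed proportion. The size of the ratio below rests on summed exon lengths of 6563 bases for Col1a1 and 12136 for Col1a2. It is therefore compared between groups only, not with that proportion. The ratio Col1a1/Col1a2 was 1.01, 0.818 and 0.867 in Hoxb1-null NMPs against 0.303, 0.297 and 0.271 in wild-type NMPs. In progenitors it was 0.343, 0.358 and 0.377 with Hoxb1 against 1.01, 1.19 and 1.02 in controls, and 2.84, 2.81 and 2.90 with Hoxb1 and SAG against 3.28, 3.30 and 3.22 with SAG. The ratio was thus higher in the cells without Hoxb1 in each pair, and libraries did not overlap. The exact two-sided permutation test gave p = 0.1 in each pair, the smallest that 3 against 3 libraries allow. Col3a1/Col1a1 sets type III against type I collagen and is not a ratio of chains of 1 trimer. It was 2.44 ± 0.108, 2.05 ± 0.0910, 2.22 ± 0.0486 and 2.04 ± 0.170 in the progenitor groups in the order of the heat map. In Hoxb1-null NMPs it was 0.123 ± 0.00853 and in wild-type NMPs 0.183 ± 0.0156 (SD, n = 3 in each group). Col6a3/Col6a1 was 0.524 ± 0.0398 in Hoxb1 against 0.228 ± 0.00828 in control progenitors and 0.255 ± 0.0454 in Hoxb1-null against 0.146 ± 0.0179 in wild-type NMPs (exact permutation p = 0.1 for each). With SAG it overlapped, at 0.334 ± 0.0253 with Hoxb1 and SAG against 0.309 ± 0.0122 with SAG (exact permutation p = 0.3). Col11a1/Col11a2 was 3.02 ± 0.317 in Hoxb1 + SAG against 6.31 ± 0.345 in SAG progenitors, and Col5a1/Col5a2 was 16.7 ± 0.485 in Hoxb1-null against 43.2 ± 3.67 in wild-type NMPs. Without SAG, Col11a1/Col11a2 was instead higher with Hoxb1, at 3.80 ± 0.240 against 3.18 ± 0.115 in controls. In Hoxb1-null NMPs it was 0.543 ± 0.0323 against 0.696 ± 0.0164 in wild-type NMPs. Col5a1/Col5a2 was 4.26 ± 0.159 with Hoxb1 against 5.86 ± 0.255 in controls. With SAG it was 4.95 ± 0.0773 with Hoxb1 against 4.84 ± 0.0185 without Hoxb1. The head-to-head pair Col4a1/Col4a2 ranged from 1.13 ± 0.0506 in control progenitors to 2.43 ± 0.0612 in wild-type NMPs, and its genotypes overlapped in NMPs (exact permutation p = 0.2). Col4a5/Col4a6 lay between 1.97 ± 0.146 in wild-type NMPs and 4.74 ± 0.296 in Hoxb1 + SAG progenitors, and also overlapped between NMP genotypes (exact permutation p = 0.8). 10 ratios were compared in each pair of groups, and with 3 against 3 libraries none could pass 0.05.

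**Figure D5:**
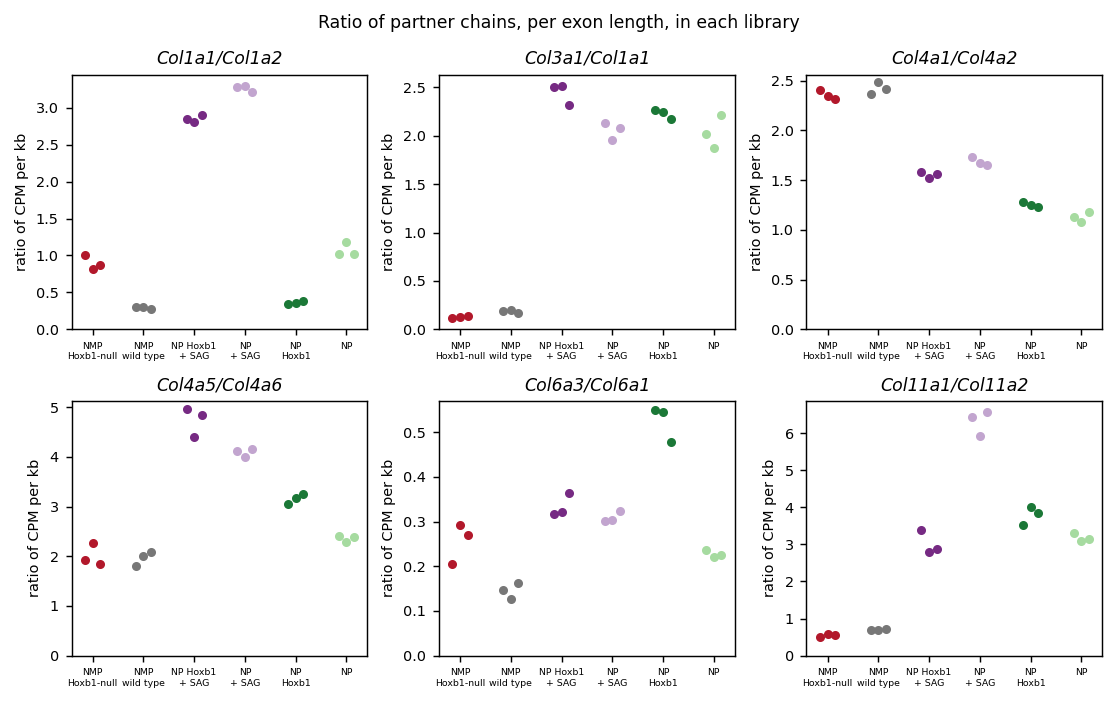
Ratio of the levels per kilobase of partner chains in each library (points), 1 panel per pair on a linear axis from 0. Col3a1/Col1a1 is the exception, since its chains belong to types III and I and are not partners in 1 trimer. Col1a1/Col1a2 is below 0.4 in wild-type NMPs and Hoxb1 progenitors and above 2.8 in both SAG groups.

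Genes that make, anchor or cut collagen were counted from lists of companions. The counts below stand against 28.8% of all tested genes called in NMPs, 46.2% with Hoxb1 without SAG, 43.4% with Hoxb1 with SAG and 72.7% with SAG without Hoxb1, and several lie near these shares. Of 30 collagen processing genes, 29 were tested in NMPs, with 8 higher and 6 lower in Hoxb1-null cells. Loxl4 and Loxl2, relatives of Lox, were lower in the null cells, at 4.99 and 11.8 CPM against 9.73 and 17.4 CPM in wild-type NMPs, while Adamts2, a procollagen N-proteinase, was higher (7.24 CPM in null against 3.88 CPM in wild-type cells). Without SAG, 8 of the 30 were higher and 12 lower with Hoxb1, and the collagen chaperone Serpinh1 was at 789.7 CPM in Hoxb1 against 1296 CPM in control progenitors (log2 change -0.70 ± 0.033). With SAG, 9 were higher and 9 lower, and P3h2, a prolyl 3-hydroxylase that acts on type IV collagen, was at 75.2 CPM with Hoxb1 and SAG against 21.4 CPM with SAG (log2 change 1.82 ± 0.047, adjusted p = 2.37e-30). Adamts3, another N-proteinase, was lower with Hoxb1 in both settings, at 13.6 CPM with Hoxb1 and SAG against 27.1 CPM with SAG and 97.7 CPM with Hoxb1 against 171 CPM in controls.

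Of 18 basement membrane partners, 16 were tested in NMPs, and 4 were higher and 6 lower in the null cells, the lower ones including Agrn (agrin, 302 CPM in null against 453 CPM in wild-type cells), the laminin chain Lama5 and Pxdn, which crosslinks type IV collagen (243 CPM in null against 320.1 CPM in wild-type cells). With Hoxb1, 6 of 18 were higher and 5 lower without SAG, and 4 higher and 10 lower with SAG, Smoc2 being higher in both (log2 changes 2.81 ± 0.21 and 2.55 ± 0.094). Of 22 other matrix genes, 9 of 18 tested were higher and 2 lower in Hoxb1-null NMPs, with the proteoglycan Bgn, tenascin Tnc and elastin Eln the most changed (log2 changes 1.03, 0.99 and 0.85). In progenitors 9 of 21 tested were higher and 5 lower with Hoxb1 without SAG, and 10 higher and 3 lower with SAG, with Emilin1 and Mfap4 of elastic fibres higher in both (Emilin1 1.85 and 0.71, Mfap4 1.43 and 0.77). Among 16 collagen and matrix receptors, Ddr2, a receptor for fibrillar collagen, was at 12.9 CPM in Hoxb1 against 59.7 CPM in control progenitors (log2 change -2.20 ± 0.072, adjusted p = 1.21e-26). The order of Ddr2 was reversed with SAG, at 40.2 CPM with Hoxb1 and SAG against 27.6 CPM with SAG. With SAG 4 receptors were higher and 10 lower with Hoxb1, among them Ddr1 (282 CPM with Hoxb1 and SAG against 414 CPM with SAG). Of 13 matrix proteases and inhibitors, 2 were higher and 5 lower with Hoxb1 without SAG, and 6 higher and 3 lower with SAG. With SAG against without SAG in progenitors lacking Hoxb1, 17 of 30 processing genes were higher and 8 lower, and 15 of 21 other matrix genes were higher and 5 lower, led by Tgfbi (log2 change 3.13 ± 0.084).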

How the data were processed

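RNA was sequenced from 18 libraries in 6 groups of 3, as the sample labels give them. Per the labels' protocols and the submitters' processing notes, poly(A) RNA was made into directional libraries with 15 PCR cycles, base calls were converted with bcl2fastq 1.8.2 and reads were counted per gene on mm10 with featureCounts 1.4.6. The deposited values are raw counts per gene, with no normalization by the authors. The sources used here name no aligner, annotation release or strand setting. Symbols were found for 35449 of 37224 genes.

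From these counts, edgeR 4.0.16 in R 4.3.3 was run with filterByExpr by group, TMM scaling, robust quasi-likelihood F-tests and p-values adjusted by Benjamini-Hochberg across every gene tested. Calls required an adjusted p below 0.05. The 6 NMP libraries, the 12 progenitor libraries and all 18 libraries (wild-type NMPs against control progenitors) were fitted separately, on 15032, 16238 and 16761 genes. Printed levels are CPM with TMM factors over all 18 libraries. A level per kilobase is that CPM divided by the summed exon length. That sum covers all annotated exons of a gene and can exceed the length of its transcripts, which limits comparisons between genes. The SE of a log2 change is its size divided by the square root of F. The method was also run on simulated counts, with a common spread for all genes and changes only in a small set of well-counted genes. That simulation does not cover members with few reads or comparisons in which many genes change. Counting intervals cover counting error only.

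Values in every library are given for 14 members whatever their values (Col1a1, Col1a2, Col3a1, Col2a1, Col4a1, Col4a2, Col18a1 and all 7 genes that are not collagens) and for members with at least 5 CPM in a group and a called log2 change of at least 1 in a Hoxb1 comparison. In each comparison and class, up to 3 called members with the largest rise and 3 with the largest fall, reaching 1 CPM in either group, are named too. Members named beyond this, such as partner chains, were chosen after their values were seen. From companion lists, genes with at least 5 CPM and the largest called changes are named. The members, lists and naming rule were chosen with earlier results of these data known. Same-numbered libraries did not deviate together in every pair, so no replicate term was used. Alternatives were DESeq2 1.42.0, other scalings and filters, other sets of libraries, a replicate term and leaving out each library.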

Additional observations from a re-analysis of the deposited data

Results flagged for a closer look

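For 26 of the named members, the Hoxb1 effect with SAG differed from that without SAG by the edgeR test of the difference itself (adjusted p under 0.05). Some of them were named because this difference was called, so the 26 is not a rate. Of 46 tested members, 15 were called upward and 13 downward, where 35.5% of all tested genes were called. Values are log2 differences of the effect with SAG minus that without it. Among fibrillar chains, the difference was -2.03 for Col1a2, -0.64 for Col1a1, -0.61 for Col11a1 and -0.52 for Col3a1. It was 1.51 for Col5a3, 0.71 for Col11a2, 0.41 for Col5a1 and 0.34 for Col2a1. Col5a2, the remaining type V chain, was not called (-0.081, adjusted p = 0.409).

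In basement membrane chains it was 2.79 for Col15a1, 0.34 for Col4a6 and 0.13 for Col4a5, against -0.84 for Col4a1 and -0.57 for Col4a2. Other collagens gave 1.59 for Col6a6, 1.02 for Col9a1, 0.93 for Col22a1 and 0.76 for Col14a1. Negative values were -0.90 for Col6a3, -0.90 for Col8a2, -0.79 for Col8a1 and -0.79 for Col9a3. Genes that are not collagens gave 0.64 for Fn1 and 0.61 for Dcn, and -3.01 for Prelp, -0.53 for Lox and -0.52 for Sparc. SAG and library set cannot be told apart in these values.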

How the results depend on the processing

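Of 181 values of named members, 164 kept their direction and their call under every alternative that was run, 17 lost the call under at least 1, and 0 changed direction. In NMPs the number of members called lower was 7 with edgeR and 4 with DESeq2, and ranged from 4 to 7 when 1 library was left out. The number called higher ranged from 18 to 22. Leaving out 1 library gave 16 to 19 higher and 11 to 12 lower for Hoxb1 without SAG, 15 to 20 and 12 to 14 with SAG, and 13 to 16 and 12 to 13 for the difference of these effects. It gave 27 to 28 higher and 12 to 14 lower for SAG without Hoxb1, 28 to 29 and 11 to 12 with Hoxb1, and 8 to 10 and 35 to 36 for wild-type NMPs against control progenitors. Other scalings, filters and DESeq2 kept each other count within 1.5 times. Replicate numbers did not pair the libraries throughout by the check of their deviations. Between Hoxb1 + SAG and SAG progenitors, deviations of same-numbered libraries correlated at 0.155, 0.131 and 0.0017 for replicates 1, 2 and 3. With the replicate number as a block, members called higher and lower were 22 and 7 in NMPs, 18 and 13 without SAG, 20 and 13 with SAG, 16 and 13 for the difference, 28 and 13 and 28 and 11 for SAG without and with Hoxb1, and 9 and 36 for wild-type NMPs. Members under about 1 CPM, such as Dcn in NMPs, are limited by depth.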
